A study of Homo sapiens with 24 samples.

Results

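The genes described here encode the proteins of the mitochondrial ribosome. They were taken as the probes annotated to symbols that start with MRPL or MRPS and a digit. The annotation named 115 such probes for 80 symbols. Of these symbols, 2 were pseudogenes (MRPL42P5 and MRPS31P5), 2 were long noncoding RNAs (MRPL20-AS1 and MRPL23-AS1), and 3 protein genes (MRPL28, MRPS14 and MRPS34) were not detected on at least 4 of the 24 arrays. The remaining 73 genes were followed, among 12149 tested features in all. The rule uses symbols and detection alone. Detection means a detection p under 0.01 against the negative controls of the same array. A total of 66 of the 73 genes were detected on all 24 arrays. The others were MRPL9 on 23, MRPL20 on 22, MRPS2 on 20, MRPL12 on 19, MRPS25 on 12, MRPL2 on 7 and MRPL4 on 5. MRPL2 and MRPL4 passed mainly through the undifferentiated cells, where both were detected on 4 of 4 arrays.

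The cells were N/TERT1, an immortalised line of human keratinocytes, the cells that build the epidermis. RNA from 6 groups of 4 samples each was measured on Illumina bead arrays. Undifferentiated cells were grown in 0.3 mM calcium and taken at day 0. The other 5 groups were differentiated at high density in 1.2 mM calcium for 6 days. One of them received nothing further (day 6). From day 3, the others received 50 µM EGBG, 1 mM spermidine/spermine (SDSM), EGBG together with SDSM, or 1 mM putrescine (PUT). EGBG inhibits AMD1, S-adenosylmethionine decarboxylase, which supplies the aminopropyl groups that turn putrescine into spermidine and spermidine into spermine. Whether 1 mM is the concentration of each polyamine or of the mixture is not stated. All groups come from this one line, in a serum-free keratinocyte medium with pituitary extract and EGF. The 4 samples of a group are called biological replicates, but separate cultures are not described, so p-values cover the spread between these samples.

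Mitochondria translate the few proteins encoded in their own DNA, all of which are core subunits of the respiratory chain and ATP synthase. The ribosome that does so takes its RNA from mitochondrial DNA and its proteins from nuclear genes, which are translated in the cytosol and imported. Many of these proteins descend from proteins of the bacterial ribosome, and many others have no bacterial counterpart and are particular to mitochondria. In the epidermis, keratinocytes leave the dividing basal layer, mature, and finally lose their mitochondria and other organelles as they cornify.

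The arrays detected 10348 to 13089 of 47304 probes, with mean signals of 345 to 637. Arrays of a group correlated at 0.965 or above, and arrays of different groups at up to 0.990. With array quality weights, where a lower weight marks an array farther from its group, day 6 replicate 1 (0.328) and day 6 replicate 3 (0.396) weighed least. Some results that rest on the day 6 arrays are therefore also given without them. Of the listed keratinocyte markers, 5 had a tested probe (KRT5, KRT14, SFN, PERP and DSP), and all 5 were detected on 24 arrays. The melanocyte markers MLANA, TYR, TYRP1 and SOX10, the fibroblast markers COL1A2, COL3A1, LUM, PDGFRA and PDGFRB, and the immune markers PTPRC and CD3E were detected on 0 arrays. Of 6, 7 and 7 genes with a probe in these lists, 1, 1 and 4 were detected on at least 4 arrays (PMEL, COL1A1, and CD14, CD68, HLA-DRA and CD207). The summed signal of the keratinocyte list was 40886 to 51622 in undifferentiated, 59358 to 105647 in day 6, 76613 to 85101 in EGBG, 47638 to 63854 in EGBG plus SDSM, 55617 to 77760 in SDSM and 57296 to 65367 in PUT arrays. In the same order of groups, that of the melanocyte list was 0.951 to 33.3, 193 to 360, 51.5 to 220, 225 to 371, 271 to 516 and 299 to 431. That of the fibroblast list was 102 to 127, 312 to 931, 339 to 668, 375 to 528, 357 to 621 and 362 to 471. That of the immune list was 4692 to 6738, 3625 to 6297, 4631 to 5273, 2909 to 5102, 2378 to 5174 and 3696 to 4142. PMEL was detected on 0 undifferentiated arrays and on the other 20, and on the log2 scale it rose by 1.10 (SE 0.20, adjusted p = 7.87e-05) in EGBG plus SDSM against EGBG. The part of these shifts in the results below was not tested.

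Promoters of 5 genes, taken in order of their change after 6 days among the genes given in full below, are shown because they hold DNA words bound by known activators of nuclear genes for mitochondrial proteins. The words searched, on both strands, were CCGGAAG (the site of GABP and other ETS factors), AAGATGGC (the core of the YY1 site) and GCATGCGC (the core of the NRF1 site). None of the words contains another. In that order 7 genes, MRPL49 with the largest change among them, were passed over because they had no window or no whole word before the start. Among them, MRPL16 holds a GABP word on the other strand that begins at -6 and runs across the start. Sequences are from RefSeq, assembly GRCh38.p14, written 5′ to 3′ on the gene's strand and ending at the base before the annotated transcription start. Capitals mark the words.
MRPS18B, small subunit, chr6:30617690-30617839, plus strand: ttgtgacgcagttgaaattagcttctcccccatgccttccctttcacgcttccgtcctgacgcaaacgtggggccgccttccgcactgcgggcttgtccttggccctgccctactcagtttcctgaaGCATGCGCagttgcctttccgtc
MRPL3, large subunit, chr3:131502972-131503121, minus strand: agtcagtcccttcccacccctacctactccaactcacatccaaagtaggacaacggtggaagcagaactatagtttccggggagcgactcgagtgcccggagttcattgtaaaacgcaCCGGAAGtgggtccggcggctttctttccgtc
MRPL40, large subunit, chr22:19432395-19432544, plus strand: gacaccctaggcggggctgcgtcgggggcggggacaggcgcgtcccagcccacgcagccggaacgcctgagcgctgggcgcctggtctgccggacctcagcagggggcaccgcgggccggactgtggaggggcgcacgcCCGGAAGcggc
MRPL52, large subunit, chr14:22829702-22829886, plus strand: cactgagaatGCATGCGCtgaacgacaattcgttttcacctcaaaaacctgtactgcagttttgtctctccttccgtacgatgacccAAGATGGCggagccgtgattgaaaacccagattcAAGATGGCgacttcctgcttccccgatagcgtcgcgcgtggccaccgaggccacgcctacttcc
MRPS10, small subunit, chr6:42217862-42218011, minus strand: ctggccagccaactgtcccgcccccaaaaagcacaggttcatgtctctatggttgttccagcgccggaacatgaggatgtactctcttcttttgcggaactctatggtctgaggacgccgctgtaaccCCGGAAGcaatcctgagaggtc
The NRF1 word of MRPS18B begins at position -23 from the start, and the GABP words of MRPL3, MRPL40 and MRPS10 begin at -32, -11 and -22. MRPL52 holds the NRF1 word at -175 and the YY1 word at -98 and -64, with a GABP word on the other strand across the start itself. MRPS18B and MRPS10 hold the YY1 word as well, at positions 24 and 10, after the start and outside the sequence shown.

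Windows of 250 bases before to 50 bases after the start were listed for 65 of the 73 genes. The GABP word stood in 27 of the 65 (41.5%), against 22.4% of the 7404 tested genes with a window. The YY1 word stood in 21 (32.3%), against 6.82%, and the NRF1 word in 6 (9.23%), against 6.59%. Counted by window, since some genes have several, the shares were 37% of 81 member windows for GABP, 28.4% for YY1 and 7.41% for NRF1, against 10.3%, 2.89% and 3.05% of all 35116 windows. These windows include those of genes not tested here, so this background differs from that of the tested genes in more than the unit. In 24 of the 65 genes none of the 3 words was found. A match is a string of letters and not a measured binding site.

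Levels are normalised log2 signals, so a difference of 1 is a doubling, and a signal is compared only with the same probe on other arrays. Each gene's level was first expressed relative to its own mean over the 24 arrays, and the median over the 73 genes was taken on every array. On the undifferentiated arrays these medians were 0.33, 0.36, 0.30 and 0.39. On the day 6 arrays they were -0.21, -0.13, 0.17 and -0.13. On the EGBG arrays they were 0.22, 0.26, 0.45 and 0.41. The undifferentiated and EGBG arrays were thus all above the day 6 arrays, and day 6 replicate 3 stood above the other day 6 arrays. With EGBG plus SDSM the medians were -0.28, -0.24, 0.03 and -0.12, and with SDSM alone -0.31, -0.41, -0.40 and -0.29. The SDSM arrays were the lowest of all, below every undifferentiated, day 6, EGBG plus SDSM and PUT array. With PUT the group mean was -0.12 ± 0.10 (SD, n = 4). Over all tested features the array medians stayed between -0.12 and 0.08.

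**Figure D1:**
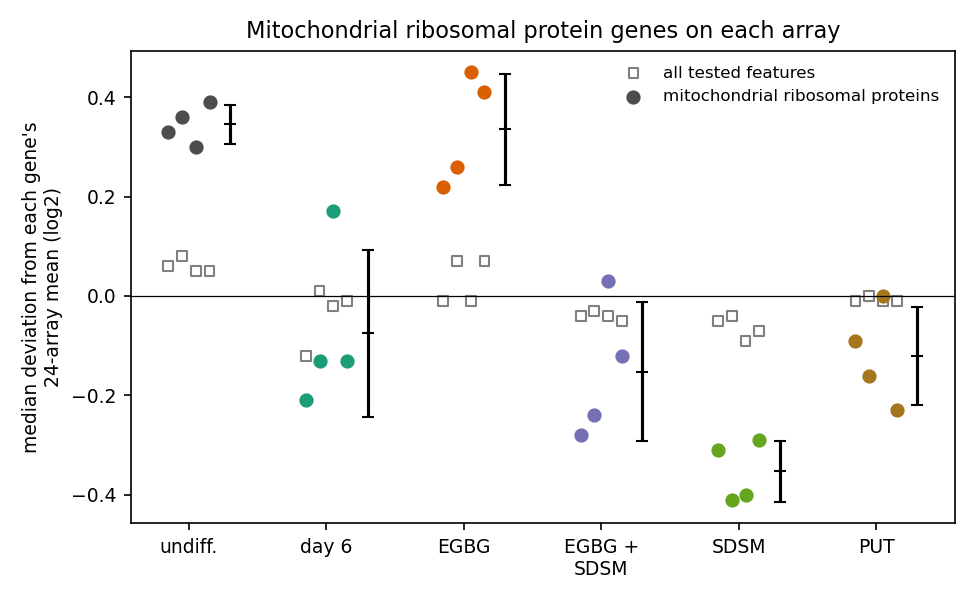
Median level of the 73 mitochondrial ribosomal protein genes on each array (filled points), on a log2 scale relative to each gene's mean over the 24 arrays, with the mean and SD of the 4 arrays as bars. Open squares give the same median over all 12149 tested features. The undifferentiated (0.30 to 0.39) and EGBG (0.22 to 0.45) arrays are high and the SDSM arrays (-0.41 to -0.29) low, while the squares stay near 0.

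Genes differed in how far they moved. The highest and lowest of the 6 group means were 1.08 apart at the median gene, from 0.22 in MRPS15 to 2.31 in MRPS18B. The highest group mean was in undifferentiated cells for 33 genes and in EGBG-treated cells for 24. The lowest was in SDSM-treated cells for 41. With the probe used for each gene, 8 genes passed the threshold in none of the 8 comparisons of 2 groups, namely MRPL21, MRPL23, MRPL33, MRPL46, MRPL55, MRPL57, MRPS15 and MRPS18A. Second probes of MRPL33 and MRPL55 did pass. That of MRPL33 was lower in day 6 against undifferentiated cells (-0.47) and in SDSM against PUT (-0.58). That of MRPL55 was lower against day 6 with SDSM (-0.86), PUT (-0.81) and EGBG plus SDSM (-0.75), and in EGBG plus SDSM against EGBG (-0.63). Precision differed as well, from an SE of a difference of 0.10 for MRPS26 to 0.52 for MRPL23, with a median of 0.16. The threshold throughout is limma's adjusted p under 0.05, adjusted over all 12149 features, and n is 4 arrays in each group. In RNA from whole cultures, fewer cells of a kind and less RNA per cell cannot be told apart.

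Differentiation lowered many mitochondrial ribosomal protein mRNAs. In day 6 against undifferentiated cells 36 of the 73 genes fell and 7 rose, with a median difference of -0.34. Over all tested features 33.8% fell and 23.8% rose, with a median of -0.10. The 36 include MRPL2, which was detected on 4 of 4 undifferentiated arrays and on 1 of 4 day 6 arrays. It passed the filter mainly through the undifferentiated cells, so its fall is no independent support. Genes of the large subunit fell in 23 of 49 cases and rose in 5, and those of the small subunit fell in 13 of 24 and rose in 2. By origin, 23 of 43 genes with a bacterial counterpart and 13 of 30 mitochondria-specific genes fell. Among the 8 mitochondria-specific genes of the small subunit 6 fell and 0 rose, with a median of -0.72. The median was -0.37 for small-subunit genes with a bacterial counterpart. In the large subunit it was -0.64 with a counterpart and -0.23 for mitochondria-specific genes. In these classes MRPS18B and MRPS18C, relatives of bacterial protein S18, count as small-subunit genes with a counterpart, and MRPS18A and MRPS30, which sit in the large subunit, count as mitochondria-specific.

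In the large subunit, MRPL11, a protein of the base of the stalk that contacts translation factors, had levels of 10.66, 10.58, 10.68 and 10.29 on the undifferentiated arrays and 8.97, 8.87, 9.16 and 8.54 on the day 6 arrays. It fell by 1.67 on the log2 scale (SE 0.17, 3.18-fold, adjusted p = 1.09e-08). Every day 6 array was below every undifferentiated array, and this was so for each gene of this and the next paragraph. MRPL24, an early-binding protein of large-subunit assembly in bacteria, went from 10.89, 11.18, 11.21 and 11.44 to 9.65, 9.53, 10.13 and 9.43. It fell by 1.5 on the log2 scale (SE 0.16, 2.82-fold, adjusted p = 1.6e-08), and a second probe of the gene fell by 0.99. MRPL16, which in bacteria lies close to the tRNA sites, went from 10.05, 9.96, 10.19 and 10.02 to 8.47, 8.81, 8.70 and 8.62. It fell by 1.40 on the log2 scale (SE 0.13, 2.64-fold, adjusted p = 2.38e-09).

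MRPL3, which lies near the peptidyl transferase centre in bacterial ribosomes, went from 12.31, 12.23, 12.03 and 12.45 to 10.54, 10.93, 11.36 and 10.68. It fell by 1.38 on the log2 scale (SE 0.16, 2.60-fold, adjusted p = 6.02e-08), and its second probe fell by 0.98. MRPL40, a mitochondria-specific protein encoded in the chromosome 22 region lost in DiGeorge syndrome, went from 9.87, 10.08, 10.04 and 10.52 to 8.36, 8.91, 9.19 and 8.70. It fell by 1.34 on the log2 scale (SE 0.17, 2.53-fold, adjusted p = 1.71e-07). The largest fall of all 73 genes was in the small subunit. MRPS18B had levels of 12.20, 12.31, 11.91 and 12.14 on the undifferentiated arrays and 10.73, 10.39, 10.31 and 10.34 on the day 6 arrays. It fell by 1.70 on the log2 scale (SE 0.14, 3.25-fold, adjusted p = 1.41e-10), and its second probe fell by 1.2. The GABP or NRF1 words of MRPL3, MRPL40 and MRPS18B are shown above.

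The other genes that fell by at least 2-fold were MRPL10, a stalk protein (-1.31), MRPS17 (-1.25), MRPL1 (-1.25), MRPL52 (-1.14), MRPL45, which lies at the exit of the peptide tunnel beside the inner membrane (-1.13), and MRPS10 (-1.03). Their adjusted p ranged from 4.67e-08 for MRPS10 to 6.21e-05 for MRPL52. MRPL45 rests on a single probe, since its second probe differed by -0.01.

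Against the trend, MRPL49, a mitochondria-specific protein of the large subunit, had levels of 6.75, 6.93, 7.10 and 7.17 on the undifferentiated arrays and 9.26, 8.61, 8.64 and 8.79 on the day 6 arrays. It rose by 1.84 on the log2 scale (SE 0.17, 3.58-fold, adjusted p = 1.24e-09), and all day 6 arrays were above all undifferentiated ones. MRPL14, a protein of the face that joins the small subunit, went from 10.78, 10.93, 11.22 and 10.93 to 11.43, 11.70, 11.87 and 11.91. It rose by 0.76 on the log2 scale (SE 0.14, 1.69-fold, adjusted p = 4.02e-05). MRPS6, a small-subunit protein with a bacterial counterpart, went from 12.11, 11.87, 11.84 and 11.91 to 12.62, 12.60, 12.71 and 12.67, and it rose by 0.72 on the log2 scale (SE 0.16, 1.65-fold, adjusted p = 0.000328). MRPL49, MRPL14 and MRPS6 had no overlapping arrays. The other genes that rose were MRPL53, by 0.91 (SE 0.22, adjusted p = 0.00115), MRPL20, by 0.94 (SE 0.40, adjusted p = 0.048), MRPL54, by 0.88 (SE 0.37, adjusted p = 0.047), and MRPS18C, by 0.40 (SE 0.14, adjusted p = 0.0156), all 4 with overlapping arrays.

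MRPL20 and MRPL54 were higher on day 6 replicates 1 and 3. MRPL20 had 8.40, 7.03, 8.85 and 7.27 on the day 6 arrays and MRPL54 had 9.5, 8.26, 10 and 8.95, against 6.71, 6.86, 7.41 and 6.82 and 8.24, 8.06, 8.55 and 8.35 on the undifferentiated arrays. Without day 6 replicate 1 neither passed (adjusted p = 0.137 and 0.113), nor without day 6 replicate 3 (0.205 and 0.189). MRPL20 did not without undifferentiated replicate 1, 2 or 4 either (0.0876 to 0.107), nor MRPL54 without day 6 replicate 4 or any undifferentiated array (0.0508 to 0.105). MRPS18C did not without day 6 replicate 3 (0.0505) or undifferentiated replicate 1 (0.0523). Among the genes that fell, MRPL22 (0.0823), MRPL50 (0.126), MRPS24 (0.0593) and MRPS25 (0.0726) did not pass without day 6 replicate 1. MRPL22 (0.0707) and MRPS25 (0.0925) did not without day 6 replicate 3 either. MRPL4, which did not pass with all arrays, passed as lower without day 6 replicate 1 (-0.35, 0.0331), the only day 6 array on which it was detected. In the other deposited table, 24 genes fell and 9 rose, with a median of -0.09. There 2946 of all 12149 features fell and 2797 rose.

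**Figure D2:**
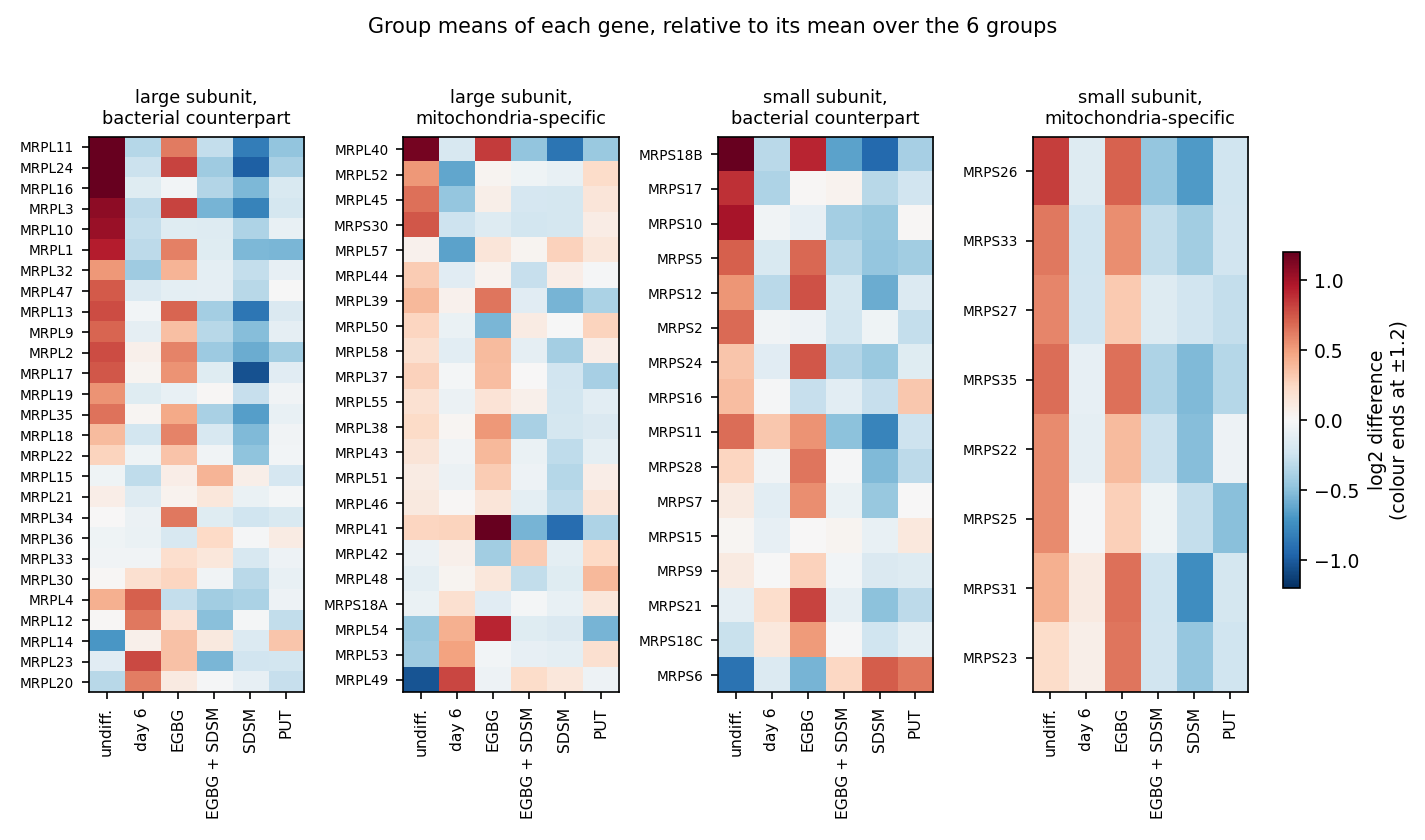
Group means of the 73 genes, each relative to the mean of its own 6 group means (log2, red above and blue below, with the colour ending at a difference of 1.2 either way), by subunit and by presence of a bacterial counterpart. Within a panel, genes are sorted from the lowest to the highest difference between day 6 and undifferentiated cells. Most rows are red in undifferentiated and EGBG-treated cells and blue with SDSM, while MRPS6 and MRPL49 are bluest in undifferentiated cells.

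Cells that differentiated with EGBG, an inhibitor of AMD1, were compared with untreated day 6 cells, without a measure of AMD1 activity or polyamine levels. Here 36 of the 73 genes rose and 5 fell, with a median difference of 0.40. Over all tested features 21.3% rose and 17.7% fell, with a median of 0.07. In the small subunit 15 of 24 genes rose and 1 fell, and in the large subunit 21 of 49 rose and 4 fell. Of the 8 mitochondria-specific small-subunit genes 6 rose and 0 fell, with a median of 0.56. In the other classes of subunit and origin the medians were 0.38 to 0.39. This comparison shares the day 6 arrays with the preceding one, so a low or high day 6 array moves a gene in opposite directions in the 2.

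MRPS18B had levels of 11.51, 11.89, 11.53 and 11.81 on the EGBG arrays, against the day 6 levels given above. It rose by 1.24 on the log2 scale (SE 0.14, 2.37-fold, adjusted p = 1.25e-07). MRPL3 had 11.99, 11.88, 12.06 and 12.06 and rose by 1.12 on the log2 scale (SE 0.16, 2.18-fold, adjusted p = 4.37e-06). MRPS12, which in bacteria tunes the accuracy of decoding, had 12.40, 12.45, 12.63 and 12.73 with EGBG and 11.16, 11.42, 11.89 and 11.35 at day 6. It rose by 1.10 on the log2 scale (SE 0.14, 2.14-fold, adjusted p = 1.04e-06), and its second probe rose by 0.94. MRPL24 had 10.81, 10.61, 10.88 and 10.66 and rose by 1.06 on the log2 scale (SE 0.16, 2.08-fold, adjusted p = 1.03e-05). MRPL40 had 9.71, 9.75, 9.85 and 9.98 and rose by 1.03 on the log2 scale (SE 0.17, 2.05-fold, adjusted p = 2.09e-05). MRPL11 had 9.58, 9.94, 9.85 and 10.07 and rose by 0.98 on the log2 scale (SE 0.17, 1.97-fold, adjusted p = 8e-05). In each of these 6 genes every EGBG array was above every day 6 array. Second probes of MRPS18B (0.92), MRPL3 (0.82), MRPL24 (1.02) and MRPL11 (0.83) were above 0 as well.

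Some of the largest falls of differentiation had no rise with EGBG that passed. MRPL16 differed by 0.11 (95% interval -0.17 to 0.39, adjusted p = 0.546), MRPL10 by 0.14 (95% interval -0.18 to 0.46, adjusted p = 0.517) and MRPS10 by -0.06 (95% interval -0.30 to 0.18, adjusted p = 0.725). These intervals leave out a change of 2-fold in either direction. MRPL41, a mitochondria-specific protein of the large subunit, had 8.32, 8.88, 9.33 and 9.17 on the undifferentiated arrays, 9.24, 7.99, 9.74 and 8.75 on the day 6 arrays and 10.48, 9.42, 10.54 and 9.43 on the EGBG arrays. It rose by 1.04 on the log2 scale (SE 0.39, 2.05-fold, adjusted p = 0.0357), with day 6 replicates 1 and 3 and EGBG replicates 1 and 3 the highest of their groups. It did not pass without day 6 replicate 2 (0.72, adjusted p = 0.153) or 4 (0.98, 0.0781), or without EGBG replicate 1 (0.87, 0.107) or 3 (0.85, 0.114). Its difference between day 6 and undifferentiated cells did not pass, at 0.01 (95% interval -0.79 to 0.81).

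The 5 genes that fell with EGBG were MRPL49, MRPL4, MRPL42, MRPL50 and MRPS6. MRPL49 had 7.78, 7.89, 8.32 and 7.85 on the EGBG arrays, all below the day 6 arrays, and fell by 0.87 on the log2 scale (SE 0.17, 1.82-fold, adjusted p = 0.000233). MRPL42, a mitochondria-specific large-subunit protein, had 10.16, 10.56, 10.55 and 10.55 at day 6 and 9.88, 9.75, 9.97 and 10.27 with EGBG. It fell by 0.49 on the log2 scale (SE 0.16, 1.40-fold, adjusted p = 0.016), with overlapping arrays, while a second probe differed by -0.08. MRPL50, also mitochondria-specific, had 9.99, 10.24, 10.66 and 10.23 and then 9.76, 9.72, 9.73 and 10.02. It fell by 0.47 on the log2 scale (SE 0.13, 1.39-fold, adjusted p = 0.00579), again with overlap. MRPS6 had 12.02, 12.30, 12.38 and 12.30 with EGBG, all below its day 6 arrays, and fell by 0.40 on the log2 scale (SE 0.16, 1.32-fold, adjusted p = 0.0452). MRPS6 did not pass without any single day 6 array or without EGBG replicate 1, 2 or 4 (adjusted p 0.0621 to 0.135), nor MRPL42 without EGBG replicate 2 (0.0595).

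MRPL4 was detected on 1 of 4 day 6 arrays and on 0 of 4 EGBG arrays. Its day 6 levels were 8.85, 6.34, 6.41 and 6.22, with replicate 1 far above the others, and its EGBG levels were 6.12, 5.92, 6.14 and 5.64. Its fitted difference was -1.0 (adjusted p = 0.0217). Against a floor for the EGBG arrays, the day 6 mean was 1.26-fold higher, which rests on replicate 1, the only detected day 6 array. This floor is the lowest signal at which probes were detected on each EGBG array, or the gene's own signal where higher. The adjusted p does not test the difference from the floor. Without day 6 replicate 1 the fitted difference was -0.37 (adjusted p = 0.0379), between signals that were all below detection, and without EGBG replicate 4 it was -0.89 (0.0654).

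Without day 6 replicate 1, 29 of the 73 genes rose with EGBG and 4 fell. Fitted on the day 6 and EGBG arrays alone, 24 rose and 2 fell, and with the other deposited signals 15 rose and 10 fell. Among all 12149 features, 1956 rose and 1772 fell in the former fit, and 1313 rose and 2253 fell in the latter. The median of the 73 genes was 0.18 with the other deposited signals.

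Adding spermidine and spermine to EGBG lowered most mitochondrial ribosomal protein mRNAs. Against EGBG alone, 42 of the 73 genes fell with EGBG plus SDSM and 4 rose, with a median difference of -0.45. Over all tested features 29% fell and 22.2% rose, with a median of -0.07. In the small subunit 18 of 24 genes fell and 1 rose, and in the large subunit 24 of 49 fell and 3 rose. Of the 8 mitochondria-specific small-subunit genes 7 fell and 0 rose, with a median of -0.86. In the other classes of subunit and origin the medians were -0.57 to -0.30. The 42 include MRPL2, which was detected on 2 of 4 EGBG arrays and on 0 of 4 EGBG plus SDSM arrays. With single arrays left out, MRPL16 and MRPL44 each lost the call for 6 arrays, MRPS10 for 5, and MRPS27 and MRPS9 for 4 each. The EGBG arrays are shared with the comparison of EGBG with day 6 cells.

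MRPL41 had 7.65, 7.89, 9.02 and 7.82 on the EGBG plus SDSM arrays, all below the EGBG arrays. It fell by 1.87 on the log2 scale (SE 0.39, 3.66-fold, adjusted p = 0.000263), the largest fall here. MRPS18B had 10.31, 10, 10.07 and 10.09 and fell by 1.57 on the log2 scale (SE 0.14, 2.96-fold, adjusted p = 1.32e-09). MRPL3 had 10.33, 10.46, 10.87 and 10.87 and fell by 1.37 on the log2 scale (SE 0.16, 2.58-fold, adjusted p = 1.25e-07). Neither gene had an array with EGBG plus SDSM as high as the lowest EGBG array, and second probes fell by 1.49 and 1.19. MRPL40 had 8.41, 8.41, 8.52 and 8.68 and fell by 1.32 on the log2 scale (SE 0.17, 2.49-fold, adjusted p = 3.72e-07). MRPL24 had 9.21, 9.42, 9.68 and 9.73 and fell by 1.23 on the log2 scale (SE 0.16, 2.35-fold, adjusted p = 6.3e-07). MRPS26, a mitochondria-specific protein of the small subunit, went from 11.22, 11.29, 11.33 and 11.45 with EGBG to 10.09, 10.26, 10.14 and 10.10. It fell by 1.17 on the log2 scale (SE 0.10, 2.26-fold, adjusted p = 1.16e-09). Arrays did not overlap in these 3 genes.

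The 4 genes that rose were MRPS6, MRPL42, MRPL50 and MRPL36. MRPS6 had 13.24, 13.14, 12.80 and 13.07 and rose by 0.81 on the log2 scale (SE 0.16, 1.75-fold, adjusted p = 0.00012). MRPL42 had 10.77, 10.39, 10.75 and 10.84 and rose by 0.72 on the log2 scale (SE 0.16, 1.65-fold, adjusted p = 0.000472), while its second probe differed by -0.06. MRPL50 had 10.29, 10.41, 10.52 and 10.61 and rose by 0.65 on the log2 scale (SE 0.13, 1.57-fold, adjusted p = 0.000206). MRPL36, a small protein of the large subunit with a bacterial counterpart, went from 11.73, 11.98, 12.04 and 12.15 with EGBG to 12.39, 12.27, 12.56 and 12.38. It rose by 0.43 on the log2 scale (SE 0.12, 1.35-fold, adjusted p = 0.00427), and in none of the 4 genes did arrays overlap. With the other deposited signals 25 of the 73 genes fell and 5 rose, with a median of -0.24. Among all 12149 features 2284 fell and 2633 rose there.

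**Figure D3:**
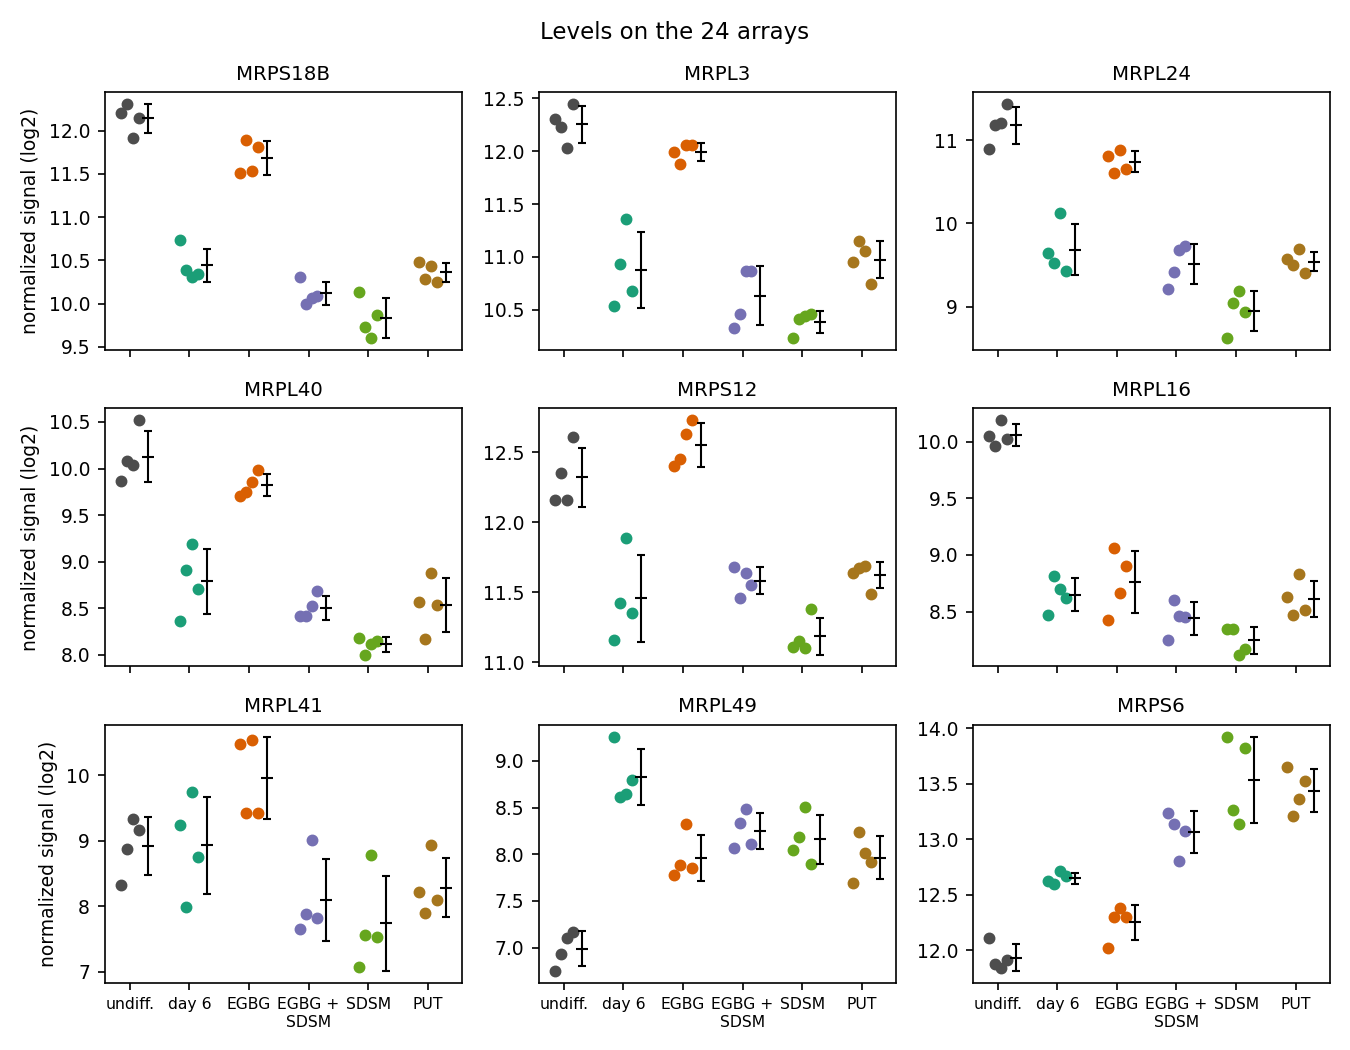
Normalised log2 signals of 9 genes on the 24 arrays (points), with the mean and SD of the 4 arrays of each group beside them; each panel has its own axis, so heights are compared within a panel. MRPS18B, MRPL3, MRPL24 and MRPL40 are high in undifferentiated and EGBG-treated cells and low in the other 4 groups, MRPL16 is high in undifferentiated cells alone, and MRPS6 and MRPL49 run otherwise.

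The comparison of differentiation (day 6 against undifferentiated) and that of the polyamines added to EGBG (EGBG plus SDSM against EGBG) have no array in common. A total of 26 genes fell in both, which is 72.2% of the 36 and 61.9% of the 42. They include MRPL2, which passed the filter mainly through the undifferentiated cells and adds no independent support. Over all tested features, 1906 fell in both, which is 46.4% of 4107 and 54.1% of 3524.

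**Figure D4:**
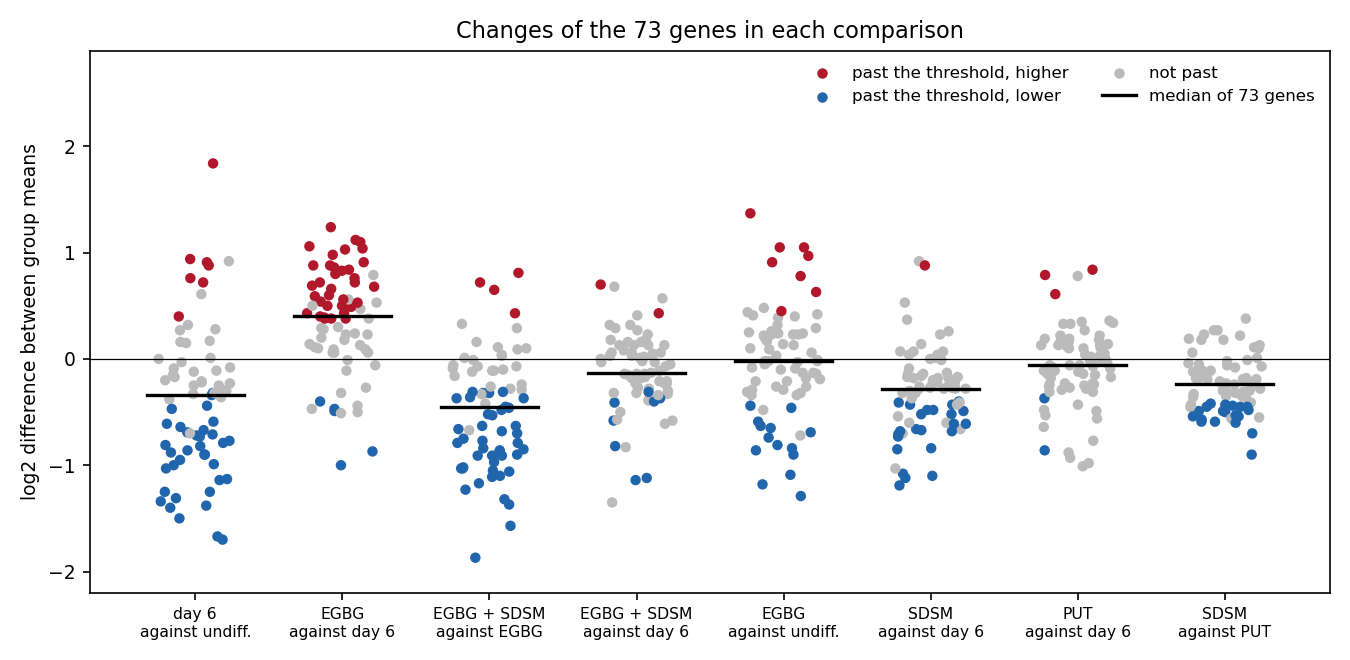
Difference between group means (log2) of each of the 73 genes in the 8 comparisons of 2 groups; red points rose and blue points fell past the threshold, grey points did not pass, and the bar is the median of the 73. The medians are -0.34 for day 6 against undifferentiated cells, 0.40 for EGBG against day 6 and -0.45 for EGBG plus SDSM against EGBG. The other medians lie between -0.28 and -0.02.

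With both agents, few genes differed from untreated day 6 cells past the threshold. In EGBG plus SDSM against day 6 cells 8 of the 73 genes fell and 2 rose, against 7.70% and 8.72% of all tested features, and 62 of the 73 had a 95% interval within a 2-fold change either way. MRPL15, a large-subunit protein with a bacterial counterpart, had 10.43, 10.46, 11.06 and 10.54 at day 6 and 11.33, 11.42, 11.15 and 11.41 with both agents. It rose by 0.70 on the log2 scale (SE 0.16, 1.63-fold, adjusted p = 0.00385), with every treated array above every day 6 array. MRPS17 was the other gene that rose, by 0.43 (SE 0.15, adjusted p = 0.0497). MRPS11, which lies on the platform of the small subunit, had 9.21, 8.54, 9.49 and 8.78 and then 7.52, 8.27, 8.53 and 8.42. It fell by 0.82 on the log2 scale (SE 0.20, 1.77-fold, adjusted p = 0.00661), and MRPL49 fell by 0.58 on the log2 scale (SE 0.17, 1.49-fold, adjusted p = 0.0222), both without overlap.

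MRPL4 was detected on 1 of 4 day 6 arrays and was not detected with both agents. Its fitted difference was -1.12 (adjusted p = 0.025), and -0.49 (0.0206) without day 6 replicate 1, the detected array. Against a floor for the treated arrays, set as for EGBG, its day 6 mean was 1.13-fold higher. MRPL12 passed as lower too, but was detected on 3 of 4 day 6 arrays and on 1 of 4 arrays with both agents, so no size is given. MRPL35 (-0.41, with -0.05 at its second probe), MRPL38 (-0.40), MRPS10 (-0.37) and MRPS26 (-0.31) also fell. Without EGBG plus SDSM replicate 1, 3 genes passed, and the same number passed without replicate 4 of that group. Without replicate 2 of that group, or without day 6 replicate 1, the number was 6. Without day 6 replicate 3, 4 rose and 3 fell, with a median of -0.03 in place of -0.13. MRPS17 did not pass without day 6 replicates 1, 2 or 4 or without any single EGBG plus SDSM array (adjusted p up to 0.184). MRPL49 did not without day 6 replicate 1 (0.1) or without EGBG plus SDSM replicate 1 (0.0713) or 4 (0.0671), nor MRPL4 without those same treated arrays (0.0551 and 0.0655). MRPL12 failed with any of 6 arrays left out (0.06 to 0.178), MRPL35 with any of 5 (0.0676 to 0.129), MRPL38 with any of 4 (0.0628 to 0.0995), MRPS10 with any of 5 (0.0571 to 0.0863) and MRPS26 with any of 6 (0.0658 to 0.0941). MRPL15 and MRPS11 passed in each of these fits. With arrays scaled to one median, 4 rose and 2 fell, with cyclic loess 3 rose and 4 fell, and with the other deposited signals 1 rose and 8 fell. In the same order, 1321, 1083 and 607 of all 12149 features rose and 596, 816 and 691 fell. Scaling to one median also moved the median of all tested features against day 6 cells to 0.12 for EGBG plus SDSM, 0.13 for SDSM and 0.16 for PUT, from 0.00, -0.02 and 0.03.

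EGBG-treated cells were also set against undifferentiated cells. The median difference of the 73 genes was -0.02, which turned to 0.05 with arrays scaled to one median; 14 genes fell and 8 rose, against 26.0% and 23.1% of all tested features. MRPL16 had 8.43, 9.06, 8.66 and 8.90 with EGBG, all below the undifferentiated arrays, and fell by 1.29 on the log2 scale (SE 0.13, 2.45-fold, adjusted p = 1.35e-08). MRPL10 went from 10.49, 10.25, 10.02 and 10.23 to 8.85, 9.37, 9.02 and 9.05. It fell by 1.18 on the log2 scale (SE 0.15, 2.26-fold, adjusted p = 5.85e-07). MRPS10 went from 12.31, 12.05, 12 and 12.08 to 10.93, 11.16, 10.80 and 11.20, and fell by 1.09 on the log2 scale (SE 0.12, 2.13-fold, adjusted p = 2.38e-08). The 3 genes had no overlapping arrays.

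MRPL54 had 10.08, 8.94, 10.56 and 9.12 on the EGBG arrays, and MRPL14 had 11.78, 11.97, 12.09 and 12.25. MRPL54 rose by 1.37 on the log2 scale (SE 0.37, 2.59-fold, adjusted p = 0.00331) and MRPL14 rose by 1.05 on the log2 scale (SE 0.14, 2.08-fold, adjusted p = 5.37e-07). MRPL41 rose by 1.05 on the log2 scale (SE 0.39, 2.06-fold, adjusted p = 0.0274) and MRPL49 rose by 0.97 on the log2 scale (SE 0.17, 1.97-fold, adjusted p = 3.27e-05). In these 4 genes all EGBG arrays were above all undifferentiated arrays. MRPL41 did not pass without EGBG replicate 1 (adjusted p = 0.0923) or 3 (0.0973), or without undifferentiated replicate 1 (0.102) or 2 (0.0523). MRPS21, a small-subunit protein with a bacterial counterpart and one of the 3 brightest probes of the family, had 11.24, 12.06, 12.08 and 12.27 on the undifferentiated arrays and 12.92, 12.67, 12.92 and 12.80 on the EGBG arrays, without overlap, and rose by 0.91 on the log2 scale (SE 0.19, 1.89-fold, adjusted p = 0.000279). Its second probe went the other way, by -0.21 (SE 0.19, adjusted p = 0.388). MRPS18C (0.78), MRPL34 (0.63) and MRPS7 (0.45) rose too. Scaled to one median, 13 genes rose and 12 fell, and with the other deposited signals 9 rose and 10 fell. Among all 12149 features, 3359 rose and 2990 fell in the former, and 2228 rose and 2829 fell in the latter.

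Spermidine and spermine without the inhibitor also went with lower mitochondrial ribosomal protein mRNAs. In SDSM against day 6 cells 23 of the 73 genes fell and 1 rose, with a median of -0.28, against 13% and 12.3% of all tested features and a median of -0.02. MRPS11 had 8.04, 7.75, 7.76 and 7.99 on the SDSM arrays, all below the day 6 arrays. It fell by 1.12 on the log2 scale (SE 0.20, 2.17-fold, adjusted p = 0.000219). MRPL17, which in bacteria sits near the exit of the peptide tunnel, went from 11.38, 10.99, 11.04 and 11.07 at day 6 to 9.72, 10.32, 10.13 and 9.99. It fell by 1.08 on the log2 scale (SE 0.15, 2.11-fold, adjusted p = 1.32e-05), again with no overlap. MRPL4 was detected on 1 of 4 day 6 arrays and was not detected with SDSM. Its fitted difference was -1.10 (adjusted p = 0.0188). It was -0.47 (0.0162) without day 6 replicate 1, the detected array, and did not pass without SDSM replicate 4 (0.0525). Against a floor for the SDSM arrays, set as for EGBG, its day 6 mean was 1.27-fold higher. MRPL2 passed as lower as well, but signals in both groups were too near background for a fold change. It did not pass without day 6 replicate 1 (0.0599) or 3 (0.118).

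The other genes that fell by over 0.6 with SDSM were MRPL41 (-1.19), MRPS31 (-0.85), MRPL13 (-0.84), MRPL24 (-0.73), MRPS21 (-0.71), MRPL40 (-0.68), MRPL35 (-0.68), MRPL49 (-0.67), MRPL39 (-0.61) and MRPS18B (-0.61). The single gene that rose was MRPS6, with 13.92, 13.26, 13.14 and 13.82 on the SDSM arrays, all above the day 6 arrays. It rose by 0.88 on the log2 scale (SE 0.16, 1.85-fold, adjusted p = 0.000178). MRPL41, with overlapping arrays, did not pass without day 6 replicate 1 or 3 or SDSM replicate 1, 2 or 4 (adjusted p 0.0575 to 0.1). Without day 6 replicate 1, 21 of the 73 genes fell and 1 rose, and without day 6 replicate 3, 15 fell and 2 rose. Scaled to one median 13 fell and 3 rose, and with cyclic loess 18 fell and 3 rose. Fitted on the day 6 and SDSM arrays alone 12 fell and 1 rose, and with the other deposited signals 14 fell and 2 rose. In the order of these 4 settings, 979, 1289, 945 and 1236 of all 12149 features fell. Those that rose numbered 1964, 1586, 999 and 1144.

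Putrescine, the diamine from which spermidine is made and which lacks its aminopropyl group, was given at 1 mM from the same day. In PUT against day 6 cells 3 of the 73 genes rose and 2 fell, against 9.58% and 7.0% of all tested features, with a median of -0.06 that turned to 0.01 with arrays scaled to one median. MRPS6 had 13.65, 13.21, 13.36 and 13.53 on the PUT arrays and rose by 0.79 on the log2 scale (SE 0.16, 1.72-fold, adjusted p = 0.00135). MRPL52, a mitochondria-specific large-subunit protein, went from 7.20, 7.79, 7.23 and 7.36 to 8.26, 8.05, 8.31 and 8.34. It rose by 0.84 on the log2 scale (SE 0.21, 1.79-fold, adjusted p = 0.00902), and neither gene had overlapping arrays.

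MRPL45 had 10.17, 11.15, 11.12 and 10.83 at day 6, with replicate 1 the lowest, and 11.57, 11.38, 11.37 and 11.39 with PUT. It rose by 0.61 on the log2 scale (SE 0.17, 1.52-fold, adjusted p = 0.0192), but by 0.39 without day 6 replicate 1 (adjusted p = 0.0954) and by 0.56 without PUT replicate 1 (0.0638), and a second probe differed by -0.20. MRPL49 had 7.69, 8.24, 8.01 and 7.92 with PUT, all below the day 6 arrays, and fell by 0.86 on the log2 scale (SE 0.17, 1.82-fold, adjusted p = 0.00129). MRPL37, a mitochondria-specific protein, went from 11.49, 11.19, 11.57 and 11.43 to 11.13, 11.04, 10.98 and 11.03. It fell by 0.37 on the log2 scale (SE 0.11, 1.29-fold, adjusted p = 0.026), and did not pass without day 6 replicate 1 (0.0654) or 3 (0.0658), or without PUT replicate 3 (0.0659) or 4 (0.0586). The balance depended on single arrays. Without day 6 replicate 1, 2 genes rose and 3 fell, without replicate 2 of that group, 3 rose and 6 fell, without its replicate 3, 6 rose and 1 fell, and without its replicate 4, 4 rose and 4 fell. Scaled to one median 3 rose and 1 fell, and with the other deposited signals 1 rose and 1 fell. Among all 12149 features, 1679 rose and 558 fell in the former, and 634 rose and 579 fell in the latter.

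Set directly against each other at 1 mM, the polyamine treatments differed in 19 of the 73 genes, all lower with SDSM than with PUT, and 0 were higher. Over all tested features 9.93% were lower and 7.10% higher, and medians were -0.24 for the 73 genes and -0.04 for all features. MRPL17 had 10.98, 11.17, 10.96 and 10.68 with PUT, all above the SDSM arrays given above. The difference was -0.90 (SE 0.15, adjusted p = 0.000198). MRPL13 had 11.09, 10.89, 11.12 and 10.58 with PUT and 10.40, 10.26, 10.08 and 10.15 with SDSM, a difference of -0.70 (SE 0.14, adjusted p = 0.0011). MRPS16 had 8.25, 8.36, 8.63 and 8.59 and 7.90, 7.80, 7.70 and 8.05, a difference of -0.60 (SE 0.17, adjusted p = 0.0165). None of the 3 genes had overlapping arrays, and all 3 have bacterial counterparts.

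MRPL24 (-0.59), MRPL3 (-0.59), MRPL35 (-0.57), MRPS31 (-0.54), MRPL48 (-0.54) and MRPS18B (-0.53) were among the others that were lower with SDSM. MRPS6, which rose with either treatment, differed between them by 0.10 (95% interval -0.22 to 0.42, adjusted p = 0.739). MRPL52 and MRPL45 differed by -0.31 (95% interval -0.75 to 0.13) and -0.35 (95% interval -0.71 to 0.01), which did not pass. MRPS16 did not pass without PUT replicate 3 (adjusted p = 0.0592) or SDSM replicate 3 (0.0531). MRPL48 did not without PUT replicate 1, 2 or 3 or any SDSM array (0.0537 to 0.125), nor MRPS31 without PUT replicate 3 (0.0517). Without PUT replicate 3 or SDSM replicate 3, 11 and 12 genes passed. With arrays scaled to one median 9 passed, and with the other deposited signals 8 were lower and 1 was higher. Among all 12149 features, 800 were lower and 705 higher in the former, and 707 lower and 640 higher in the latter.

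Whether EGBG acted differently in the presence of added polyamines was tested as an interaction, the EGBG effect with SDSM minus the EGBG effect without it. It passed for 13 of the 73 genes, with the effect lower in 10 and higher in 3, against 8.76% and 9.72% of all tested features. For MRPS18B the EGBG effect was 1.24 without SDSM and 0.29 with it, a difference of -0.96 (SE 0.20, adjusted p = 0.00104). For MRPL3 it was 1.12 and 0.25, a difference of -0.88 (SE 0.23, adjusted p = 0.00731). For MRPS24, of the small-subunit head, it was 0.88 and 0.09, a difference of -0.79 (SE 0.25, adjusted p = 0.029). In these 3 genes EGBG had the larger effect in cells given no polyamine.

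MRPL49 and MRPL42 went the other way. The EGBG effect on MRPL49 was -0.87 without SDSM and 0.09 with it, a difference of 0.96 (SE 0.24, adjusted p = 0.00603). On MRPL42 it was -0.49 and 0.42, a difference of 0.91 (SE 0.22, adjusted p = 0.005), and its second probe gave 0.19. On MRPL50 it was -0.47 and 0.11, a difference of 0.58 (SE 0.19, adjusted p = 0.0305). MRPS5, MRPS12, MRPL38, MRPS33, MRPL32, MRPS26 and MRPL44 were the other genes that passed, all with the lower effect in the presence of SDSM. Of the 16 fits with 1 array left out, MRPL44 did not pass in 10 (adjusted p up to 0.0898), MRPL32 in 10 (0.0861), MRPS33 in 8 (0.0782), MRPS5 in 7 (0.07), MRPS24 in 6 (0.074) and MRPL50 in 6 (0.0675). The other 7 genes passed in all 16. Without EGBG replicate 3, 7 genes passed, and without EGBG plus SDSM replicate 1 or SDSM replicate 4, 8 did. With the other deposited signals 3 were higher and 1 was lower, against 1105 and 464 of all 12149 features.

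A gene with several probes allows a check within the arrays. A second detected probe was present for 19 of the 73 genes. In day 6 against undifferentiated cells the probe used here passed in 12 of the 19, and in 6 of them the second probe passed too, in the same direction. In 4 others its sign was opposite (MRPL18, 0.16; MRPL22, 0.23; MRPL47, 0.06; MRPS12, 0.01), and its difference did not pass. In EGBG against day 6 both passed in 8 of 13, in EGBG plus SDSM against EGBG in 11 of 13, in SDSM against day 6 in 5 of 8 and in SDSM against PUT in 1 of 7, each time in the same direction. Both passed in 0 of 6 in EGBG against undifferentiated cells, where the sign was opposite in 3 (MRPL24, MRPL45 and MRPS21), in 0 of 4 in the interaction, in 0 of 2 in EGBG plus SDSM against day 6 and in 0 of 1 in PUT against day 6.

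Genes that act with the mitochondrial ribosome were counted in the same fit. These lists were chosen with results of these data known, and their counts are descriptions. For comparison, 33.8% of all tested features fell and 23.8% rose by day 6. With EGBG 21.3% rose and 17.7% fell, and with added SDSM 29% fell and 22.2% rose. Of 19 tested genes for assembly of the mitochondrial ribosome, 12 fell and 0 rose by day 6, 15 rose and 0 fell with EGBG, and 16 fell and 1 rose when SDSM was added to EGBG. TFB1M, which methylates the RNA of the small subunit, differed by -1.84 (SE 0.14, adjusted p = 4.5e-11) between day 6 and undifferentiated cells. MRM3, which methylates the RNA of the large subunit, differed by 1.34 (SE 0.14, adjusted p = 2.61e-08) with EGBG and by -1.18 (SE 0.14, adjusted p = 9.85e-08) when SDSM was added. ERAL1, a chaperone of the small-subunit RNA, differed by -1.23 (SE 0.15, adjusted p = 1.56e-07) in that comparison. DDX28, an RNA helicase, was the 1 gene that rose there, by 1.01 (SE 0.23, adjusted p = 0.000687).

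Of 14 translation factors, 10 fell and 0 rose by day 6, 8 rose and 0 fell with EGBG, and 11 fell and 0 rose with added SDSM. MTIF2, the initiation factor, differed by -2.21 (SE 0.18, adjusted p = 1.64e-10), then 1.54 (SE 0.18, adjusted p = 2.98e-07) and -1.68 (SE 0.18, adjusted p = 3.69e-08) in these 3 comparisons. MTRFR, a rescue factor for stalled ribosomes, differed by -1.48 (SE 0.15, adjusted p = 7.99e-09), 1.23 (SE 0.15, adjusted p = 5.76e-07) and -1.22 (SE 0.15, adjusted p = 3.41e-07). Of 15 genes of mitochondrial aminoacyl-tRNA synthesis, 11 fell and 0 rose by day 6, 7 rose and 0 fell with EGBG, and 9 fell and 1 rose with added SDSM. EARS2, which charges the glutamate tRNA, differed by -0.69 (SE 0.17, adjusted p = 0.00143), 1.89 (SE 0.17, adjusted p = 5.03e-09) and -2.08 (SE 0.17, adjusted p = 4.55e-10). NARS2, for asparagine, differed by -1.54 (SE 0.20, adjusted p = 2.63e-07), 1.39 (SE 0.20, adjusted p = 3.74e-06) and -1.45 (SE 0.20, adjusted p = 1.1e-06).

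Of 9 genes of mitochondrial DNA and its transcription, 5 fell and 1 rose by day 6, 4 rose and 0 fell with EGBG, and 5 fell and 1 rose with added SDSM. TFAM, which packages mitochondrial DNA and starts its transcription, differed by -1.37 (SE 0.17, adjusted p = 2.56e-07) by day 6. TFB2M, the other initiation factor of mitochondrial transcription, differed by -0.81 (SE 0.18, adjusted p = 0.000522), 1.51 (SE 0.18, adjusted p = 4.61e-07) and -0.96 (SE 0.18, adjusted p = 0.000123). Of 4 proteins of the mitochondrial ribosome that carry other symbols, 1 fell and 1 rose by day 6, 2 rose and 0 fell with EGBG, and 2 fell and 0 rose with added SDSM. GADD45GIP1 differed by -0.89 (SE 0.24, adjusted p = 0.00275) by day 6 and DAP3, of the small subunit, by 0.53 (SE 0.17, adjusted p = 0.0135) with EGBG.

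Subunits of the oxidative phosphorylation complexes, most of which hold products of mitochondrial translation, numbered 67 tested genes. By day 6, 17 fell and 15 rose, against 33.8% and 23.8% of all tested features. Their median was -0.06. With EGBG 30 rose and 0 fell, and with added SDSM 49 fell and 0 rose, with medians of 0.36 and -0.62. With SDSM alone 23 fell and 0 rose, against 13% and 12.3% of all tested features. ATP5MC1, of the membrane ring of ATP synthase, differed by 1.15 (SE 0.17, adjusted p = 7.93e-06) with EGBG, -1.66 (SE 0.17, adjusted p = 1.84e-08) with added SDSM and -1.10 (SE 0.17, adjusted p = 4.95e-05) with SDSM alone. NDUFA13, of complex I, differed by 1.51 (SE 0.27, adjusted p = 3.49e-05) by day 6, where NDUFB9 of the same complex differed by -1.21 (SE 0.19, adjusted p = 6.07e-06).

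Proteins of the cytosolic ribosome were counted for comparison. Of 69 tested genes 14 fell and 1 rose by day 6, 7 rose and 0 fell with EGBG, and 25 fell and 1 rose with added SDSM, with medians of -0.05, 0.15 and -0.32. In the same order, the shares of all tested features were 33.8% and 23.8%, 21.3% and 17.7%, and 29% and 22.2%. RPL37 differed by -1.2 (SE 0.14, adjusted p = 3.61e-08), 1.48 (SE 0.14, adjusted p = 4.34e-09) and -1.02 (SE 0.14, adjusted p = 8.34e-07), and RPL22 by -0.78 (SE 0.11, adjusted p = 2.05e-06), 1.11 (SE 0.11, adjusted p = 3.12e-08) and -1.36 (SE 0.11, adjusted p = 4.09e-10). Whether the lists differ from one another was not tested.

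**Figure D5:**
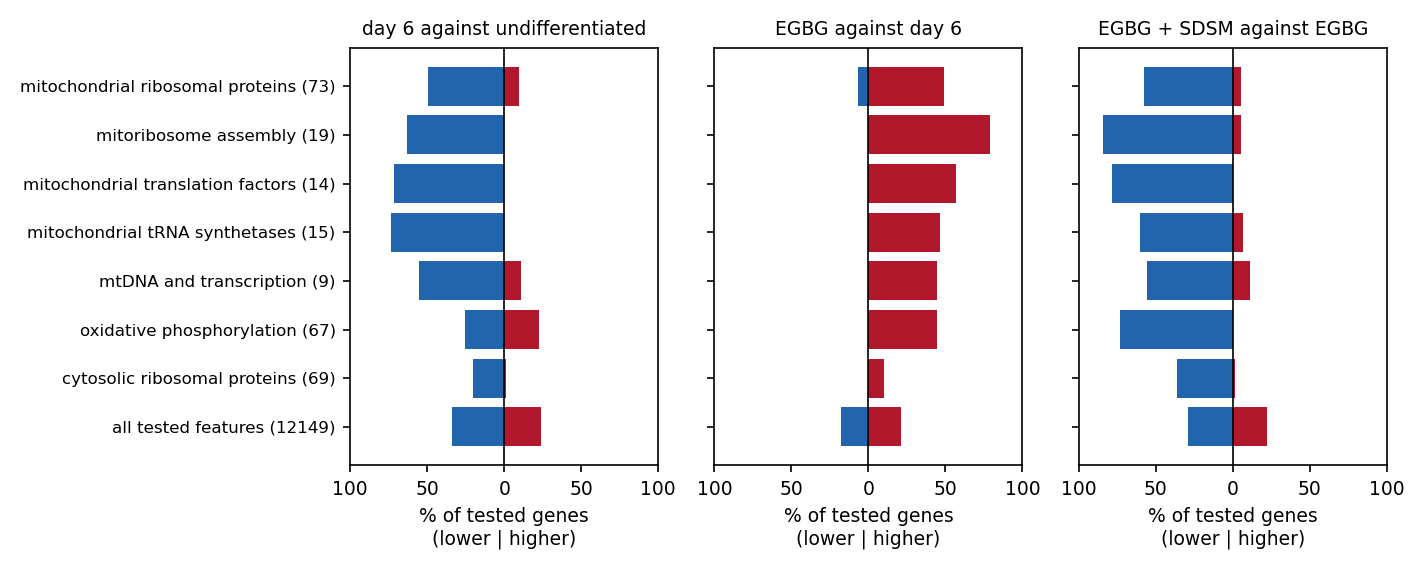
Share of the tested genes of each list (number tested in brackets) that fell (blue, to the left) or rose (red, to the right) past the threshold in 3 comparisons, in percent, with all 12149 tested features at the bottom. Of the mitochondrial ribosomal protein genes 36 of 73 fell by day 6, 36 rose with EGBG and 42 fell when SDSM was added, and the assembly genes show 12, 15 and 16 of 19.

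Among regulators of nuclear genes for mitochondrial proteins, 5 were tested. MYC, which drives growth and ribosome production, differed by -1.64 (SE 0.20, adjusted p = 9.37e-08) by day 6, -1.0 (SE 0.20, adjusted p = 0.000206) with EGBG and 1.16 (SE 0.20, adjusted p = 2.26e-05) when SDSM was added. PPRC1, a coactivator related to PGC, differed by -0.96 (SE 0.19, adjusted p = 0.000133), 1.24 (SE 0.19, adjusted p = 1.28e-05) and -0.84 (SE 0.19, adjusted p = 0.00074). MYC and PPRC1 both fell by day 6 and moved in opposite directions in the other comparisons. GABPB1, the partner subunit of the factor that binds the GABP word, differed by 1.58 (SE 0.20, adjusted p = 1.77e-07), -0.50 (SE 0.20, adjusted p = 0.0443) and 1.05 (SE 0.20, adjusted p = 8.26e-05). YY1 differed by -0.35 (SE 0.16, adjusted p = 0.0588), 0.05 (SE 0.16, adjusted p = 0.836) and 0.17 (SE 0.16, adjusted p = 0.382), and ESRRA, a nuclear receptor, by 0.11 (SE 0.32, adjusted p = 0.799), 0.11 (SE 0.32, adjusted p = 0.818) and -0.41 (SE 0.32, adjusted p = 0.298), none of which passed.

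Changes were also counted by promoter word. Of the 27 genes with the GABP word 11 fell and 4 rose by day 6, 15 rose and 0 fell with EGBG, and 18 fell and 0 rose with added SDSM. Of the 38 without it, 21 fell and 3 rose, 18 rose and 5 fell, and 20 fell and 4 rose. The medians were -0.32, 0.49 and -0.48 with the word and -0.40, 0.38 and -0.34 without it. Of the 21 genes with the YY1 word 12 fell and 2 rose by day 6, 11 rose and 3 fell with EGBG, and 10 fell and 3 rose with added SDSM, with medians of -0.34, 0.38 and -0.28. Of the 44 without it, 20 fell and 5 rose, 22 rose and 2 fell, and 28 fell and 1 rose, with medians of -0.34, 0.45 and -0.57. Of the 6 with the NRF1 word 5 fell and 1 rose, 6 rose and 0 fell, and 5 fell and 0 rose, with medians of -0.83, 0.58 and -0.52. Of the 59 without it, 27 fell and 6 rose, 27 rose and 5 fell, and 33 fell and 4 rose, with medians of -0.33, 0.39 and -0.37. These differences between genes with and without a word were not tested.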

How the data were processed

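RNA of 24 samples was hybridised to Illumina bead arrays. The deposited value table holds each array's bead intensities on a linear scale, not normalised (-67.97 to 68803.6 over 47304 probes), and a detection p-value per probe is deposited with a second table. The submitters' processing notes name GenomeStudio. The second deposited table holds signals with a floor of 40 (65.7% of values) whose making is not given in the sources used here. Its detection p-values ran in the order of the intensities of the same array with 0 breaks, and in no other array's order, so they were used with them. The log2 values printed here were computed here from the deposited intensities.

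Intensities were background-corrected, quantile-normalised and put on a log2 scale with neqc (limma 3.58.1, R 4.3.3, offset 16, negative-control level estimated from the detection p-values). Probes with a detection p under 0.01 on at least 4 arrays were kept (14304), and the brightest probe stood for each gene, which left 12149 features. Probe annotation gave 1 symbol to 30102 probes, several to 8 and none to 17194. All 24 arrays entered one limma fit (lmFit and eBayes) with a mean for each group. Adjusted p-values are Benjamini-Hochberg over all features, with a threshold of 0.05, and intervals are the fit's 95% intervals for single genes. For arrays, their number limits the precision. The fit was tested on simulated data. Python 3.11.15 with pandas 2.3.3, numpy 2.4.6 and matplotlib 3.10.9 made the summaries and plots.

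Values on every array were printed for the genes past the threshold with the largest changes and no overlap (up to 6 in each direction in the first 3 comparisons and up to 3 in the others), for those against the majority direction, and for the 3 brightest. Other genes were named for contrast after their values were seen. The members and lists were chosen with earlier results of these data known. Alternatives were other background, filter, scaling, probe and model choices, the second deposited table, and leaving out each array.

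Replicate numbers are shared between groups in the labels. Deviations of same-numbered arrays from their group means correlated at over 0.1 in every pair for day 6 with EGBG (0.287 to 0.571), SDSM with PUT (0.19 to 0.337) and SDSM with EGBG plus SDSM (0.253 to 0.391), and not in every pair for the other groups.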

Additional observations from a re-analysis of the deposited data

Results flagged for a closer look

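In 10 of 198 groups of 4 arrays tested, 1 array stood apart from the other 3 by Dixon's ratio at its 95% critical value, which chance gives in about 1 in 20 groups. MRPL4 had 8.85 on day 6 replicate 1 and 6.22 to 6.41 on the other day 6 arrays. MRPL42 had 10.16 on the same array and 10.55 to 10.56 on the others, and in undifferentiated cells 10.71 on replicate 1 and 10.13 to 10.21 elsewhere. MRPS26 had 10.36 on day 6 replicate 2 and 10.48 to 10.51 on the others. On EGBG replicate 4, MRPL15 had 11.28 against 10.89 to 10.94, and MRPL50 had 10.02 against 9.72 to 9.76. On SDSM replicate 3, MRPL20 had 8.38 against 6.71 to 6.90, and MRPL53 had 8.59 against 7.88 to 7.98. With PUT, MRPL45 had 11.57 on replicate 1 against 11.37 to 11.39, and MRPS21 had 12.1 on replicate 3 against 11.52 to 11.61.

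The effect of EGBG differed with and without SDSM for 13 of the 73 genes by limma's interaction test. The differences (log2, effect with SDSM minus effect without) were 0.96 for MRPL49, 0.91 for MRPL42 and 0.58 for MRPL50, and -0.96 for MRPS18B, -0.88 for MRPL3 and -0.79 for MRPS24.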

How the results depend on the processing

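Across the alternatives for 63 results of single genes, those chosen for values on every array, 578 values kept their direction and their side of the threshold, 52 kept the direction and lost the call, and 0 reversed. With single arrays left out, 494 did and 58 lost the call. Among the other called genes, the sign turned in 3 cases in the other deposited table, none past the threshold there: in day 6 against undifferentiated cells MRPL22 from -0.32 to 0.09 (adjusted p = 0.649) and MRPL37 from -0.30 to 0.08 (0.658), and in EGBG plus SDSM against EGBG MRPS9 from -0.31 to 0.01 (0.997). The number of genes past the threshold moved by over 1.5 times in these cases. Fitted on the compared groups alone, EGBG against day 6 gave 26 (from 41), EGBG plus SDSM against day 6 gave 1 (from 10), SDSM against day 6 gave 13 (from 24), PUT against day 6 gave 3 (from 5) and the interaction gave 8 (from 13); fewer arrays then estimate the spread. In the other deposited table, EGBG against day 6 gave 25, EGBG plus SDSM against EGBG gave 30 (from 46), PUT against day 6 gave 2, SDSM against PUT gave 9 (from 19) and the interaction gave 4. Scaled to one median, EGBG plus SDSM against day 6 gave 6 and SDSM against PUT gave 9. EGBG plus SDSM against day 6 gave 4 with array weights and 6 with no filter. The cause was not tested except where given.

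With the replicate block (replicate number as a term), PUT against day 6 gave 12 (4 higher and 8 lower), against 1493 higher and 1248 lower of all 12149 features. The block gave 47 for EGBG against day 6, with 0 calls lost and 6 gained, and 22 for SDSM against PUT, and no other count moved by over 1.5 times. In deviations from the group means, each array's correlations with arrays of other groups were averaged by replicate number. For 18 of 24 arrays the mean was highest for their own number, a hint from the data only.

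Leaving out single arrays gave 38 to 43 genes for day 6 against undifferentiated cells, 33 to 43 for EGBG against day 6, 41 to 45 for EGBG plus SDSM against EGBG, 3 to 10 for EGBG plus SDSM against day 6, 17 to 26 for SDSM against day 6, 4 to 9 for PUT against day 6, 11 to 20 for SDSM against PUT, 21 to 25 for EGBG against undifferentiated cells and 7 to 16 for the interaction.

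The slide as a block was not run, since the headers give no slides. MRPL2 and MRPL4 were below detection in most groups, so their fitted differences are near the background.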
